A study of Mus musculus with 16 samples.

Results

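The response of the liver to a steatosis-steatohepatitis diet (SSD) was measured in mice without NKG2D, as the difference between 3 SSD-fed and 4 normal chow diet (NCD)-fed Klrk1-/- mice. These 7 libraries were chosen by their genotype and treatment labels from the 16 of the series, and all genes of the table were examined. Each library is the RNA of 1 whole liver, and SSD is a chow enriched in fat, fructose and cholesterol that was fed for 3 weeks. The other 9 libraries, from 4 NCD-fed and 5 SSD-fed wild type (WT) mice, were used only to ask where the Klrk1-/- response differed. All were male mice that were 8 to 12 weeks old when feeding began, and the labels give the strain as C57BL6J for the WT mice and as NKG2D for the Klrk1-/- mice. Whether the genotypes were littermates is not given in the sources used here, so an effect of Klrk1 and one of the separately bred line cannot be told apart. The Klrk1-/- mice lacked the receptor in every cell and on both diets, so the absence of NKG2D is shared by both groups of the main comparison.

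Klrk1 encodes NKG2D, an activating receptor on natural killer (NK) cells and on some T cells that binds stress-induced ligands of the Raet1, H60 and Ulbp1 families on other cells. A hepatocyte that takes up cholesterol shuts down the transcription factor SREBP2, and with it cholesterol synthesis and uptake, while oxysterols turn on liver X receptor (LXR) genes that export sterol. Fatty acids activate PPARα, which drives their oxidation, and stressed or amino acid-starved cells activate ATF4. Injured liver then recruits monocytes, which become lipid-associated macrophages, activates stellate cells that lay down collagen, and brings hepatocytes and other cells into the cell cycle.

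The targeted gene was reported first. The normalized count of Klrk1 was 2.3, 4.98, 8.71 and 1.23 in the NCD-fed and 0.966, 1.61 and 4.29 in the SSD-fed Klrk1-/- mice, against 20.1 to 28.7 in the NCD-fed and 32.9 to 71.1 in the SSD-fed WT mice. Every Klrk1-/- library lay below every WT library, so the labels and the gene go together, and the residual reads left Klrk1 below the mean of 10 required for a test within Klrk1-/- mice. A normalized count is the number of reads on a gene divided by 1 factor for its library, and it can be compared between mice but not between genes.

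The Klrk1-/- libraries held between 20842235 and 28225003 reads on genes. The first principal component of the 7 libraries carried 63.4% of the variance and parted the diets, with the NCD-fed mice between -30.9 and -26.1 and the SSD-fed mice between 35.2 and 42.0. On the next component, with 10.6%, NCD-fed mouse 3 stood apart at -29.3, and without it 346 genes were higher and 370 lower by the rule given below in place of 327 and 377. The hepatocyte marker Alb (albumin) was at 1516692 to 2068378 on NCD and 1449483 to 1621095 on SSD, while the pancreas marker Prss2 and the muscle marker Ckm had 0 reads in all 7 libraries and the adipocyte marker Adipoq was at most 1.24. In whole liver, fewer cells of a type and less RNA per cell cannot be told apart. No 2 mice of a group were the same library deposited again, since their reads differed by a chi-square of 13.5 to 40.5 per gene.

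SSD changed the liver of Klrk1-/- mice broadly. Of 12904 genes tested, 1723 (13.4%) rose and 2067 (16%) fell at an adjusted p under 0.05, together 29.4%. With a more than 2-fold change as well, 327 genes (2.53%) were higher and 377 (2.92%) lower on SSD, together 704 or 5.46%. With every library scaled to the same total in place of the deposited factors, these counts were 678 and 271. The values of the NCD-fed and SSD-fed mice did not overlap for 689 of these 704 genes (97.9%), and for 37.6% of all genes tested. Tests are limma's on log2(normalized count + 1), differences are SSD minus NCD with the standard error (SE) of the model, and p-values were adjusted over all genes by the Benjamini-Hochberg method. For a gene with few reads, the added 1 makes the difference smaller than the true one. Of the 327 higher genes 44 had a mean under 10 on NCD, and of the 377 lower genes 61 had one under 10 on SSD. Such a gene reached the mean of 10 required for a test only through the diet in which it was high, so its groups had to differ in that direction. Among the genes named below these were Aldh1l2, Cyp2b9, Fut1, Gpnmb, Mmp12, Myo15 and Phgdh, higher on SSD, and Chrna4, Cyp2c40, Cyp2c69, Htra4, Idi1 and Pnpla5, lower on SSD. "Rose" and "fell" are used below for genes at an adjusted p under 0.05, and the counts of each gene group are to be read against the 13.4% of all genes that rose and the 16% that fell.

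**Figure D1:**
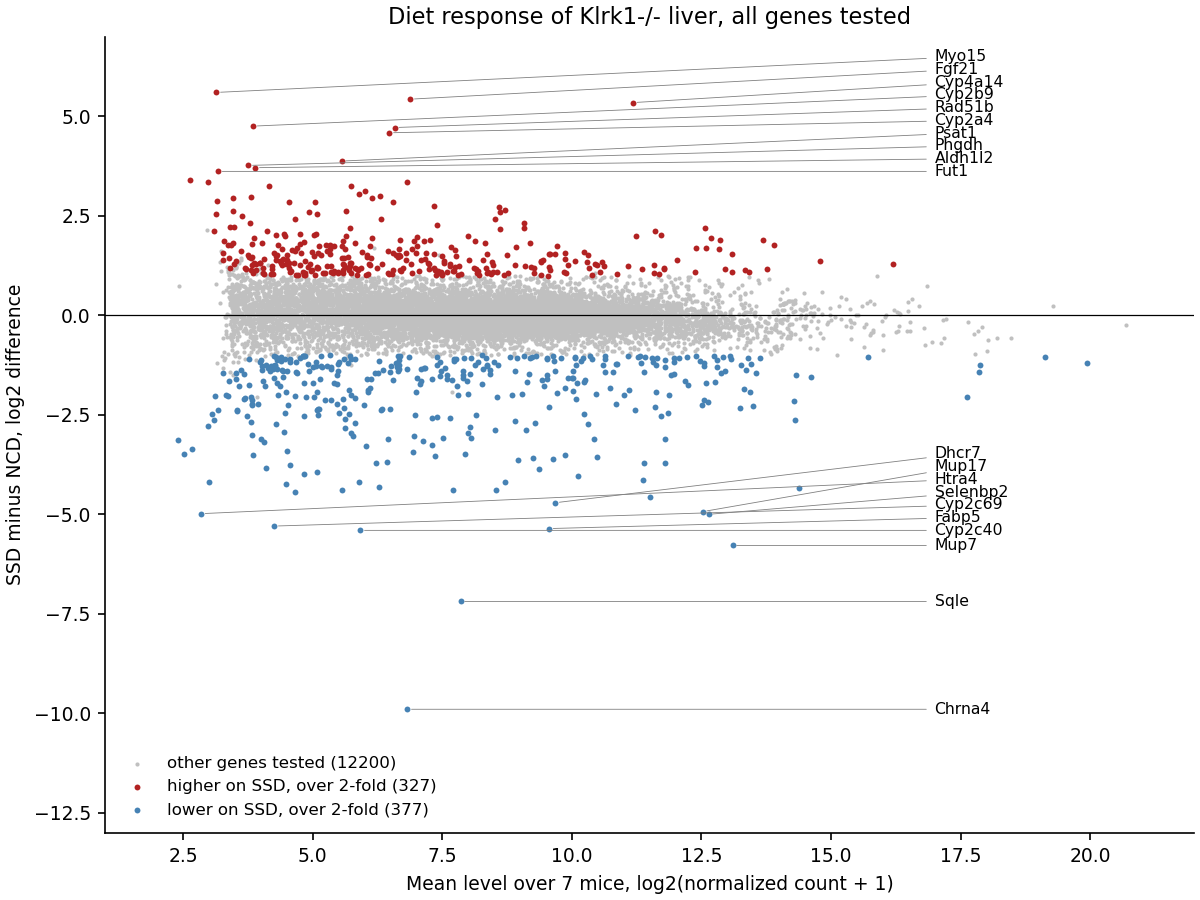
Mean level (log2 of the normalized count + 1, x axis) and log2 difference between SSD-fed and NCD-fed Klrk1-/- mice (y axis) of the 12904 genes tested, 1 point per gene. Coloured points are the 327 genes higher and 377 lower by more than 2-fold at an adjusted p under 0.05, and the named points are the 10 largest rises and 10 largest falls without overlap between the diets.

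The largest rises included genes of lipid oxidation and serine synthesis and a hormone of the liver. Fgf21, a hormone secreted by the stressed or fasted liver, was at 47.1, 29.9, 23.6 and 7.38 on NCD and 1123, 1040.0 and 894 on SSD (log2 difference 5.43 ± 0.43, adjusted p = 4.47e-06). Cyp4a14, a PPARα target that hydroxylates fatty acids, was at 1060.4, 202, 644 and 363 and 18669, 18447 and 20777 (log2 difference 5.35 ± 0.41, adjusted p = 3.06e-06). Both were far higher in each SSD-fed mouse than in any NCD-fed mouse. Psat1 (3.73 to 26.4 on NCD, 189.5 to 248 on SSD) and Phgdh (0 to 16.1 on NCD, 50.2 to 65.1 on SSD), enzymes of serine synthesis, and Aldh1l2 (1.24 to 8.04 on NCD, 46.6 to 76.3 on SSD), a mitochondrial enzyme of folate metabolism, rose, with 1 to 3 of the 4 NCD-fed mice at the floor of 3 reads in each. Cyp2a4 (7.47 to 35.7 on NCD, 427 to 728 on SSD) and Cyp2b9 (0 to 18.7 on NCD, 54.1 to 159 on SSD) are steroid-metabolising cytochrome P450 enzymes that are higher in female than in male liver, and both rose in these male mice. Rad51b, a gene of DNA double-strand break repair, was at 41.4, 14.9, 16.2 and 25.8 on NCD and 638, 660.1 and 568 on SSD (log2 difference 4.72 ± 0.28, adjusted p = 4.58e-07). Fut1, a fucosyltransferase, was at 0 to 5.74 on NCD and 32.1 to 40.3 on SSD (adjusted p = 0.00128), and no fold is given, since 2 of the 4 NCD-fed mice were at the floor. Fut1 (chr7:45266713-45270483, plus strand) and Fgf21 (chr7:45263310-45264914, minus strand) are neighbours on GRCm39 that face away from each other. Myo15, an unconventional myosin, also ranked among the largest rises, but its 3 SSD-fed mice held 1631, 73.1 and 3.43 against 0 to 2.49 on NCD, so the value of mouse 1 set its mean and no fold is given. Without mouse 1 its adjusted p was 0.0539.

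The largest falls included genes of cholesterol synthesis, major urinary proteins and the nicotinic receptor subunit Chrna4. Chrna4 was at 1819, 2235, 3972 and 1311 on NCD and 0, 3.21 and 1.71 on SSD (adjusted p = 4.23e-08), and no fold is given, since 2 of the 3 SSD-fed mice were at or under 3 reads. The major urinary proteins Mup7 (24055 to 73846 on NCD, 592 to 1716 on SSD) and Mup17 (10736 to 46384 and 451 to 1755), pheromone carriers that male liver makes in bulk, fell steeply (log2 differences -5.78 and -4.93). The P450 enzymes Cyp2c40 (234 to 384 and 3.86 to 9.64) and Cyp2c69 (57.4 to 146 and 0 to 5.62), which like Cyp2a4 and Cyp2b9 are known as higher in female than in male liver, fell too, and reads of these families may be shared among near-identical copies. Selenbp2, a selenium-binding protein, was at 13553 to 39679.8 on NCD and 709.9 to 1229 on SSD (log2 difference -5.00 ± 0.32, adjusted p = 6.55e-07). Fabp5, an intracellular fatty acid carrier, was at 3679.7, 5816, 4085 and 2165 on NCD and 80.2, 124 and 72 on SSD (log2 difference -5.36 ± 0.27, adjusted p = 1.27e-07). Htra4, a secreted serine protease, was at 24.6 to 36.8 on NCD and had 0 reads in all 3 SSD-fed mice, at least 11.8-fold lower when 3 reads per SSD-fed mouse are taken as the floor. Sqle and Dhcr7, the other 2 of the 10 largest falls, belong to cholesterol synthesis.

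Cholesterol synthesis fell almost as a whole in Klrk1-/- liver. Of the 20 enzymes of the pathway, 19 fell, each by more than 2-fold and without overlap, and none rose, with a median log2 difference of -2.69 against -0.0020 over all genes tested. Sqle, the squalene epoxidase that carries out the first oxygenation of the sterol branch, was at 1985, 2293, 1705 and 1886 on NCD and 11.6, 12 and 13.7 on SSD (log2 difference -7.19 ± 0.12, adjusted p = 1.14e-11). Dhcr7, which makes cholesterol from its last precursor, was at 3313, 3403, 3599 and 2999 and 94.6, 124 and 171 (log2 difference -4.71 ± 0.16, adjusted p = 3.57e-09). Hmgcs1, which acts early in the pathway, was at 12234, 11184, 16196 and 9457 and 2842, 2418 and 2753 (log2 difference -2.17 ± 0.15, adjusted p = 1.29e-06). All 3 SSD-fed mice were thus below all 4 NCD-fed mice in each of these genes. The fall differed in depth between steps. Mvd (-4.38), Fdps (-4.15) and Cyp51 (-3.09) fell more on the log2 scale than Hmgcs1 (-2.17), Fdft1 (-2.24) and Lss (-2.73), all with adjusted p at or under 8.51e-05, and Idi1 was at 59.7 to 116 on NCD and 2.9, 2.41 and 14.6 on SSD, with no fold given since SSD-fed mice 1 and 2 did not exceed 3 reads. Fdft1, Fdps, Mvd and Cyp51 overlap an expressed neighbour, and some of their reads could belong to it.

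The regulators around the pathway moved with it. Srebf2, which encodes SREBP2, fell, with 1167 to 1365 on NCD and 581 to 747 on SSD (-0.98, adjusted p = 3.33e-05), as did its inhibitor and target Insig1, with 9793 to 12691 and 2355 to 2848 (-2.12, adjusted p = 1.1e-07). Stard4, a sterol carrier, fell too (-1.70, adjusted p = 5.69e-07). In this group 6 of 8 tested genes fell, and Mylip, a ubiquitin ligase and LXR target, rose (0.95, adjusted p = 0.00224).

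Hmgcs1 was the only 1 of the 20 synthesis genes whose promoter held the sterol regulatory element searched for, TCACNCCAC on either strand, between 250 bases before and 50 after the transcript start. The element was in 1.27% of the 25505 promoters read, in 5% of the synthesis genes (1 of 20), in 21.1% of the fatty acid synthesis genes (4 of 19), and in 3.2% of the genes that were lower and 2.15% of those higher on SSD by more than 2-fold. The stretch is shown because it held the only match among the 19 synthesis genes that fell, in capitals, from chr13:120151732-120151831 on GRCm39, plus strand, 250 to 151 bases before the start.
Hmgcs1: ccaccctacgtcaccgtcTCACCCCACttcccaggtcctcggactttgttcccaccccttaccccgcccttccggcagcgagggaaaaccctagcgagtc
A match is a description of the letters and does not show that the site was bound.

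Sterol export rose while synthesis fell. Abcg5 and Abcg8, the partner subunits of the transporter that secretes sterol into bile, were at 1643, 1631, 2364 and 1876 and at 1679.6, 1315, 1972 and 1712 on NCD. On SSD they were at 7831, 8189.6 and 6572 (log2 difference 2.01 ± 0.13, adjusted p = 7.55e-07) and at 7781, 6741 and 7196 (log2 difference 2.13 ± 0.12, adjusted p = 2.89e-07). Both were more than 3-fold higher without overlap, although the 2 genes overlap on opposite strands. Soat2, which esterifies cholesterol in hepatocytes, rose, with 1189 to 1959 on NCD and 2563 to 2739 on SSD (0.90, adjusted p = 0.000786), and the exporters Abcg1 (0.78, adjusted p = 0.00256) and Abca1 (0.25, adjusted p = 0.0366) rose less. Abca1 did not pass in a model over all 4 groups (adjusted p = 0.143) or in 6 of the 7 fits without 1 mouse (up to 0.136). In this group of export, esterification and lysosomal genes 8 of 13 tested rose and none fell.

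**Figure D2:**
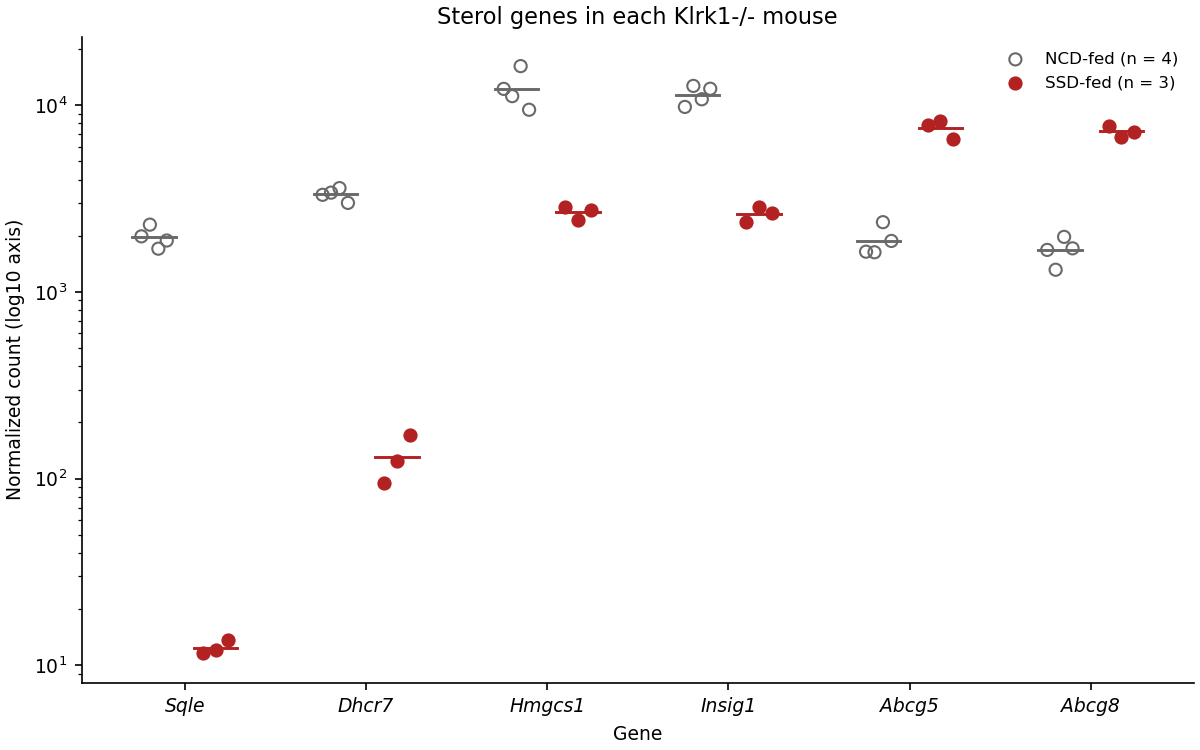
Normalized counts on a log10 axis of 6 sterol genes in each of the 7 Klrk1-/- mice, with open circles for the 4 NCD-fed and filled circles for the 3 SSD-fed mice and a bar at each group mean. Sqle, Dhcr7, Hmgcs1 and Insig1 were lower and Abcg5 and Abcg8 higher in every SSD-fed mouse than in any NCD-fed mouse.

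Of 12 bile acid synthesis genes tested 6 fell and 2 rose, a count of 3 and 2 in a model over all 4 groups, where Cyp7a1 (adjusted p = 0.0666) and Cyp8b1 (adjusted p = 0.195) did not pass. Cyp7a1, the rate-limiting enzyme of the classical pathway, was at 796, 678, 971 and 556 on NCD and 285, 489 and 395 on SSD (log2 difference -0.95 ± 0.20, adjusted p = 0.00414). Cyp7b1, of the alternative pathway, was at 6692, 5899, 2679 and 5764 and 2338, 2021 and 2565 (log2 difference -1.11 ± 0.25, adjusted p = 0.00633), and Cyp2c70, which makes the muricholic acids of mice, was at 14084, 14170.2, 8575 and 12026 and 5493, 5467 and 5900.4 (log2 difference -1.09 ± 0.15, adjusted p = 0.00029). No SSD-fed mouse reached the lowest NCD-fed mouse in these 3 genes, and Cyp8b1, which sets the share of cholic acid, also fell (-0.52, adjusted p = 0.00153). Cyp46a1, a cholesterol 24-hydroxylase best known from brain, rose (1.45, adjusted p = 0.000952). Among transporters the export pump Abcb11 was at 13737 to 16687 on NCD and 15647 to 16095 on SSD (0.080, adjusted p = 0.524), the uptake carriers Slc10a1 (-0.30, adjusted p = 0.0419) and Slco1a1 (-0.64, adjusted p = 0.000394) fell, and Abcc4, a basolateral export pump, was at 19.5 to 37.3 on NCD and 98.8 to 155 on SSD (2.21, adjusted p = 4.8e-05). Abcb4, which moves phosphatidylcholine into bile, rose (1.08, adjusted p = 3.89e-06). In a model over all 4 groups Slc10a1 (adjusted p = 0.286) and Slco1a1 (0.115) did not pass, and Slc10a1 passed in only 1 of the 7 fits without 1 mouse, not by edgeR and not with every library scaled to the same total. Slco1a4 and Slc51b did not pass. Nr0b2, the repressor of bile acid synthesis known as SHP, was at 3059, 2128, 2355 and 2518 on NCD and 2216, 1005 and 2013 on SSD (log2 difference -0.60 ± 0.23, adjusted p = 0.0664), with overlap.

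Fatty acid synthesis was lowered in Klrk1-/- liver. Of 19 genes tested 11 fell and 1 rose, with a median of -0.69. Fasn, the fatty acid synthase, was at 16909.7, 19646, 19170.3 and 15371 on NCD and 4283, 4786 and 5801 on SSD (log2 difference -1.85 ± 0.12, adjusted p = 7.55e-07). Acly, which supplies its acetyl-CoA from citrate, was at 5069.8, 5984, 6004 and 5302 and 1486, 1185 and 1804 (log2 difference -1.92 ± 0.13, adjusted p = 9.65e-07), and Acss2, which supplies it from acetate, at 8597, 9684, 10255 and 7694 and 1001, 997 and 1131 (log2 difference -3.11 ± 0.10, adjusted p = 3.57e-09). The values of the diets were apart in all 3. Larger falls were seen in Thrsp (-4.55, adjusted p = 1.5e-08), a lipogenic nuclear protein, in Acacb (-3.52, adjusted p = 1.18e-07), the mitochondrial acetyl-CoA carboxylase, and in Pnpla3 (-3.27, adjusted p = 0.000238), a lipid droplet lipase whose NCD-fed mice held 82.4 to 368. Pnpla5 was at 25.8 to 69.6 on NCD and 1.93, 5.62 and 1.71 on SSD (adjusted p = 6.44e-05). No fold is given for it, as SSD-fed mice 1 and 3 did not exceed 3 reads. Fads1, a desaturase of polyunsaturated fatty acids, Elovl6, an elongase, and Scd1, the desaturase that makes oleate, fell by 1.05, 0.99 and 0.69 on the log2 scale. Srebf1, which encodes the lipogenic factor SREBP1, was higher on SSD (0.41, adjusted p = 0.022), with overlap, but did not pass in a model over all 4 groups (adjusted p = 0.161) or in 4 of the 7 fits without 1 mouse (up to 0.103), and Me1 was at 2343 to 2612 on NCD and 2669 to 3272 on SSD (0.20, adjusted p = 0.106).

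Genes of triglyceride synthesis and lipid droplets moved in both directions, with 9 of 20 tested rising and 4 falling, and a median of 0.14. Cidec, which fuses lipid droplets, was at 48.3, 28.6, 11.2 and 18.5 on NCD and 231, 171 and 197 on SSD (log2 difference 3.04 ± 0.37, adjusted p = 0.000118). The droplet coats Plin2 (6436, 5919, 5558 and 6228, then 10331, 9830.3 and 11345) (log2 difference 0.80 ± 0.085, adjusted p = 4.39e-05) and Plin4 (233, 178, 173 and 118, then 869, 1328 and 1257) (log2 difference 2.72 ± 0.21, adjusted p = 2.93e-06) were higher in all 3 SSD-fed mice, and Plin5 (1.02, adjusted p = 0.00107) and G0s2 (1.28, adjusted p = 0.000531), an inhibitor of triglyceride lipase, rose as well. The 4 that fell included Gpam (-1.29, adjusted p = 4e-06), the first enzyme of glycerolipid synthesis, and Lpin1 (-1.48, adjusted p = 3.78e-05), a phosphatidate phosphatase. Cidea stayed at the floor at up to 3.69, and Mogat1 did not pass (-0.73, adjusted p = 0.31). Of the uptake genes, Cd36, a fatty acid translocase, was at 335, 255, 193 and 332 on NCD and 661, 477 and 621 on SSD (log2 difference 1.09 ± 0.19, adjusted p = 0.00123), Vldlr, a receptor for triglyceride-rich particles, was at 11.5 to 35.7 and 67.5 to 77.1 (1.54, adjusted p = 0.00494), and Lpl, lipoprotein lipase, was at 1001 to 1261 and 1738 to 2173 (0.73, adjusted p = 4e-04), which did not pass in a model over all 4 groups (adjusted p = 0.298). Fabp4 did not pass (0.20, adjusted p = 0.252). Apoa4, an apolipoprotein of triglyceride-rich particles, was at 11720.4, 10093, 7851 and 7278 on NCD and 37747, 27364 and 27954 on SSD (log2 difference 1.76 ± 0.17, adjusted p = 1.66e-05). Pltp, the phospholipid transfer protein, fell (-1.87, adjusted p = 4.59e-05), and the hepatic lipase Lipc did not pass (0.078, adjusted p = 0.525).

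Genes of fatty acid oxidation rose together. Of 28 PPARα targets tested 22 rose and none fell, with a median of 0.83. Ehhadh, of peroxisomal β-oxidation, was at 3993, 3397, 3410.0 and 3963 on NCD and 14979, 12521 and 15388 on SSD (log2 difference 1.95 ± 0.10, adjusted p = 1.27e-07). Vnn1, a pantetheinase, was at 314, 260.1, 291 and 258 and 1239, 1074 and 1595 (log2 difference 2.20 ± 0.13, adjusted p = 4.41e-07), and Cpt1a, which admits fatty acids to mitochondria, at 3267, 3528, 3574 and 3447 and 6236, 5488 and 6455 (log2 difference 0.81 ± 0.082, adjusted p = 2.79e-05). In each the lowest SSD-fed mouse lay above the highest NCD-fed mouse. Acot1 (2.42, adjusted p = 3.78e-06), Acot2 (1.87, adjusted p = 2.55e-05), Acot3 (3.24, adjusted p = 4.41e-05) and Acot4 (1.55, adjusted p = 0.000104), acyl-CoA thioesterases, Acaa1b (1.37, adjusted p = 4.86e-06), a peroxisomal thiolase, and the fatty acid hydroxylases Cyp4a10 (2.0, adjusted p = 0.00125) and Cyp4a31 (1.90, adjusted p = 0.00016) rose by more than 2-fold, and near-identical copies in the Acot and Cyp4a families may share reads. The rise was not seen in each PPARα target. Angptl4, an inhibitor of lipoprotein lipase, was at 2492 to 4332 on NCD and 3748 to 4359.8 on SSD (0.37, adjusted p = 0.11). Pdk4, which spares glucose, rose with overlap (0.90, adjusted p = 0.0266), but not in 4 of the 7 fits without 1 mouse (adjusted p of up to 0.122). Ppara itself rose, with 389.9 to 546 on NCD and 608 to 847 on SSD (0.52, adjusted p = 0.0156), though not without SSD-fed mouse 3 (adjusted p = 0.0789), as did Pparg, with 97 to 123 and 175 to 194 (0.74, adjusted p = 0.00178), while Ppard fell (-1.5, adjusted p = 0.000233). All 4 genes of ketone body synthesis rose. Bdh1, which makes β-hydroxybutyrate, was at 3967, 4244, 4364 and 4830.4 on NCD and 8702, 7530.3 and 7818 on SSD (log2 difference 0.88 ± 0.089, adjusted p = 2.85e-05). The PPAR direct repeat, searched by its consensus on both strands, was in none of the 28 promoters of the list and in 0.0549% of all promoters.

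Drug metabolism genes moved in both directions. Among 33 P450 genes of families 1 to 3, 8 rose and 13 fell. Cyp2a5, a coumarin hydroxylase, was at 4055, 3993, 3921 and 6352 on NCD and 12993, 18428 and 11911 on SSD (log2 difference 1.66 ± 0.18, adjusted p = 5.08e-05), Cyp2a22 rose (3.14, adjusted p = 1.32e-05), and Cyp3a11, a major drug-metabolising enzyme, rose less (0.74, adjusted p = 0.00849). Cyp1a2 (-0.53, adjusted p = 0.00687), Cyp2f2 (-0.33, adjusted p = 0.0374) and Cyp2u1 (-1.24, adjusted p = 2.57e-06) fell. Cyp2b10, Cyp2c29, Cyp2c55, Cyp2d9 and Cyp2e1 did not pass. Nr1i3, the xenobiotic receptor CAR, was at 6084, 4004, 8465 and 4672 on NCD and 10303, 10519 and 9976 on SSD (log2 difference 0.88 ± 0.20, adjusted p = 0.00623). Of 32 conjugating enzymes 15 rose and 12 fell. Gstm1, a glutathione transferase, was at 46259, 49721, 58888 and 49903 on NCD and 128744, 149837 and 101135 on SSD (log2 difference 1.29 ± 0.14, adjusted p = 5.89e-05). Gsta1 (2.42, adjusted p = 5.13e-05) and Gsta2 (1.74, adjusted p = 9.05e-06) rose as well, and Gstm3 rose (0.96, adjusted p = 0.000457). In a model over all 4 groups Gstm3 (adjusted p = 0.157), Cyp3a11 (0.0908) and Cyp2f2 (0.341) did not pass, and Cyp2f2 did not pass in 6 of the 7 fits without 1 mouse (up to 0.0996). Nnmt, which methylates nicotinamide, fell most (-3.54, adjusted p = 0.0111), with an adjusted p of 0.0651 without SSD-fed mouse 3, ahead of Ugt2b38 (-2.96, adjusted p = 1.03e-05), Sult5a1 (-1.5, adjusted p = 5.13e-05), Sult1b1 (-1.35, adjusted p = 7.12e-06), Sult1a1 (-1.18, adjusted p = 1.66e-05) and Gstm6 (-1.06, adjusted p = 3e-05). Of 15 NRF2 genes, the antioxidant response, 9 rose. Nqo1, a quinone reductase, was at 132, 131, 94.5 and 135 on NCD and 288, 370.2 and 293 on SSD (log2 difference 1.36 ± 0.15, adjusted p = 5.83e-05), Gclc, of glutathione synthesis, at 6004 to 9172 and 15168 to 17729 (1.14, adjusted p = 5.8e-05), and Hmox1, heme oxygenase, at 288 to 394 and 509.9 to 532 (0.66, adjusted p = 0.00116). Cbr3 rose (2.41, adjusted p = 0.000758). The 3 that fell, G6pdx (-1.61, adjusted p = 0.00016), Pgd (-0.82, adjusted p = 4.71e-05) and Taldo1 (-0.34, adjusted p = 0.00905), belong to the pentose phosphate pathway, which supplies NADPH. With every library scaled to the same total, Cyp1a2, Cyp2f2 and Taldo1 did not pass.

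Amino acid breakdown was lowered. Of 28 catabolic genes tested 19 fell and none rose, with a median of -0.53, and 6 of 8 urea cycle genes fell. Tat, the tyrosine aminotransferase, was at 52473, 32392, 28612 and 42533 on NCD and 9801, 5953 and 10698 on SSD (log2 difference -2.15 ± 0.22, adjusted p = 3.47e-05). Gnmt, which consumes S-adenosylmethionine, was at 19265, 19689, 16152 and 18874 and 6467, 4948 and 9746 (log2 difference -1.44 ± 0.18, adjusted p = 0.000135), and Ass1, of the urea cycle, at 40339, 37566, 37522 and 43867 and 14535, 11492 and 14766 (log2 difference -1.56 ± 0.11, adjusted p = 1.77e-06). The diets did not overlap in these genes. Bhmt, which remethylates homocysteine with betaine, was at 96972, 70148, 70951 and 73068 on NCD and 6596, 2580.2 and 3299 on SSD (log2 difference -4.33 ± 0.25, adjusted p = 3.29e-07), the largest fall of the list. Gls2 (-1.30, adjusted p = 1.6e-06), liver glutaminase, Oat (-1.40, adjusted p = 8.4e-05), ornithine aminotransferase, Agxt (-1.28, adjusted p = 5.49e-07), Got1 (-1.18, adjusted p = 6.76e-05) and Prodh (-1.06, adjusted p = 5.35e-06) fell by more than 2-fold. Cps1 (-0.60, adjusted p = 0.00939), Gpt (-0.60, adjusted p = 0.000907) and Sds (-0.54, adjusted p = 0.00123) fell by less. With every library scaled to the same total, Cps1 did not pass.

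The ATF4 program rose in part. Of 17 targets tested 11 rose and none fell, with a median of 0.91. Asns, asparagine synthetase, was at 93.1, 83.4, 42.3 and 156 on NCD and 574, 292 and 429 on SSD (log2 difference 2.28 ± 0.35, adjusted p = 0.000611). Nupr1, a stress-induced nuclear protein, was at 47.1, 24.9, 46 and 17.2 and 187, 347 and 261 (log2 difference 3.01 ± 0.33, adjusted p = 5.1e-05), and Psat1 at 26.4, 17.4, 3.73 and 19.7 and 248, 189.5 and 220.3 (log2 difference 3.88 ± 0.47, adjusted p = 0.000115). Each SSD-fed mouse was above each NCD-fed mouse. Aldh18a1, of proline synthesis, rose (1.75, adjusted p = 0.000821), as did Trib3 (0.99, adjusted p = 0.00268) and Mthfd2 (0.91, adjusted p = 0.00613). Atf3, a stress-induced transcription factor, was at 21.8, 23.6, 24.9 and 23.4 on NCD and 48.3, 36.9 and 26.6 on SSD (log2 difference 0.61 ± 0.24, adjusted p = 0.0815). Chac1, which degrades glutathione, was at 85, 152, 53.5 and 132 and 130.4, 249.8 and 165 (log2 difference 0.84 ± 0.32, adjusted p = 0.0692), and Gdf15, a circulating stress signal, at 289.5, 200.3, 339.5 and 322 and 267, 369 and 256 (log2 difference 0.054 ± 0.18, adjusted p = 0.853). None of these 3 passed.

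Fgf21, Chac1 and Atf3 were the 3 of the 17 targets (17.6%) whose promoters held the ATF4 composite element TGATGNAA, which was in 3.99% of all promoters. It was also in 22.2% of the promoters of SREBP2 control and cholesterol uptake (2 of 9) and 10.7% of those of PPARα targets (3 of 28). The lists of cholesterol synthesis, fatty acid synthesis, mitosis and DNA replication held none. The stretches of Fgf21, Chac1 and Atf3 are shown because the same match sat before 1 gene that rose with SSD and 2 that did not pass in Klrk1-/- mice. The match, in capitals, is on the reverse strand in each. Fgf21 is from chr7:45264994-45265093, minus strand, Chac1 from chr2:119181490-119181589, plus strand, and Atf3 from chr1:190915581-190915680, minus strand, all on GRCm39.
Fgf21: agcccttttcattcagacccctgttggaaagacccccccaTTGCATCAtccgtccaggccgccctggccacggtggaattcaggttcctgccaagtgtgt
Chac1: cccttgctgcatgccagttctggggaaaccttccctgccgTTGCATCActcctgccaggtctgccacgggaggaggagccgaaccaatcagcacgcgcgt
Atf3: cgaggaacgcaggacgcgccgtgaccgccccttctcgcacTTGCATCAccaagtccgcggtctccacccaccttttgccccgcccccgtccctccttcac
The 8 matched letters were identical in the 3 promoters.

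Genes of the unfolded protein response, the chaperone program of the endoplasmic reticulum, fell in part. Of 18 tested 9 fell and none rose. Sdf2l1, an endoplasmic reticulum chaperone cofactor, was at 2618, 2174, 1111 and 2498 on NCD and 688, 979 and 393 on SSD (log2 difference -1.63 ± 0.31, adjusted p = 0.00255), and Manf, a secreted chaperone regulator, at 5283, 5179, 2931 and 5351 and 1953, 2586 and 1371 (log2 difference -1.26 ± 0.23, adjusted p = 0.00188). Hspa5, the chaperone BiP, was at 25335, 22890.3, 12618 and 27974 and 12685, 13447 and 10514 (log2 difference -0.81 ± 0.22, adjusted p = 0.0179). NCD-fed mouse 3 had the lowest NCD value in all 3 genes and fell within the SSD range of Hspa5. Without it 12 genes of the list fell, while without SSD-fed mouse 3 Hspa5 had an adjusted p of 0.0818. Creld2 (-1.14, adjusted p = 0.0278), Syvn1 (-1.06, adjusted p = 0.00183) and Hyou1 (-0.57, adjusted p = 0.0299) fell, and Pdia4 (-0.40, adjusted p = 0.0805) and Dnajb9 (-0.24, adjusted p = 0.531) did not pass. With every library scaled to the same total, Hspa5, Creld2 and Hyou1 lost their calls. Without 1 mouse Creld2 and Hyou1 each did not pass in 5 of 7 fits (up to 0.114 and 0.123), and Hyou1 did not pass in a model over all 4 groups (adjusted p = 0.0802). Among cytosolic heat shock genes Hspb1 rose (1.19, adjusted p = 0.000386), Hspa1b rose (0.61, adjusted p = 0.0262) but not in 4 of the 7 such fits (up to 0.0846), and Hspa1a was at 10.3 to 19.9 on NCD and 10.6 to 26.5 on SSD (0.050, adjusted p = 0.93).

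Some genes that set glucose use and the growth hormone response also moved. Of 20 gluconeogenesis and insulin signalling genes tested 9 rose and 4 fell, with a median of 0.28. Irs2, an insulin receptor substrate, was at 378, 379.5, 524 and 478 on NCD and 673, 700.3 and 660.0 on SSD (log2 difference 0.64 ± 0.12, adjusted p = 0.0025). Pfkfb1 (-1.67, adjusted p = 3.29e-07) and Ppp1r3b (-1.02, adjusted p = 0.000853), of glycolysis and glycogen storage, fell, Pfkfb3 fell with overlap (-0.66, adjusted p = 0.0359), and Igfbp1 rose (0.41, adjusted p = 0.02). Pck1, of gluconeogenesis, was at 32546 to 67676 and 39862 to 52802 (0.018, adjusted p = 0.955). In a model over all 4 groups Irs2 (adjusted p = 0.089), Pfkfb3 (0.131) and Igfbp1 (0.475) did not pass, and without 1 mouse Pfkfb3 did not pass in 6 and Igfbp1 in 2 of the 7 fits (up to 0.144 and 0.108). Of the 18 growth hormone and urinary protein genes 10 fell and 1 rose. Igf1, the hormone that growth hormone draws from the liver, was at 16365, 19916, 20957 and 20478 on NCD and 10108, 12928 and 10372 on SSD (log2 difference -0.81 ± 0.12, adjusted p = 0.000393), its receptor gene Ghr at 10561 to 12561 and 7173 to 7777 (-0.59, adjusted p = 0.000402), and Hsd3b5, a male-specific steroid enzyme, at 5687, 8549.7, 5287 and 8417 and 1932, 1629 and 1566 (log2 difference -2.0 ± 0.17, adjusted p = 5.68e-06). Mup1 (-3.49, adjusted p = 0.000132), Mup3 (-1.25, adjusted p = 0.000112), Mup11 (-2.62, adjusted p = 0.000627), Mup20 (-0.57, adjusted p = 0.0359) and Mup21 (-2.52, adjusted p = 4.5e-07) fell, Igfals fell (-1.01, adjusted p = 0.000294) and Igfbp2 rose (0.92, adjusted p = 0.000519). Mup20 did not pass in 6 of the 7 fits without 1 mouse (up to 0.146), and Mup20 (0.131), Mup3 (0.0537) and Enho (0.0637) did not pass in the 4-group model. Socs2, Bcl6 and Elovl3 did not pass. Of the clock genes only Per2 (-1.07, adjusted p = 6.64e-05) and Noct (-0.78, adjusted p = 0.00815) among 18 tested passed, and both fell. Other secreted factors split, with Inhbe rising (1.37, adjusted p = 9.88e-05), Enho, which encodes adropin, falling (-0.60, adjusted p = 0.00239) and Angptl8 not passing (-0.28, adjusted p = 0.398).

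Many genes of plasma proteins made by hepatocytes for defence fell. Of 20 complement genes 11 fell and none rose, and of 22 acute phase genes 11 fell and 1 rose. C6 was at 7973, 10048, 6484 and 8641 on NCD and 2746, 2197 and 2355 on SSD (log2 difference -1.76 ± 0.13, adjusted p = 3.01e-06), and C9, which forms the pore of the membrane attack complex with it, at 15376, 16186, 15464 and 18069 and 6612, 7983 and 6318 (log2 difference -1.23 ± 0.10, adjusted p = 5.52e-06). Orm1, an acute phase carrier protein, was at 21534, 23277, 22085 and 23178 and 3774, 6287 and 4297 (log2 difference -2.27 ± 0.14, adjusted p = 6.18e-07). The diets were fully apart in the 3 genes. C8b (-1.14, adjusted p = 3.16e-05), F11 (-1.42, adjusted p = 2.77e-07), Apcs (-1.41, adjusted p = 4.94e-07), Orm3 (-2.26, adjusted p = 0.00735), Hamp2 (-2.88, adjusted p = 2.53e-05), Saa1 (-1.14, adjusted p = 0.00479) and Saa2 (-1.47, adjusted p = 0.000482) fell, with reads of the Saa, Orm and Hamp copies possibly shared. Saa3, the form made by macrophages and other non-hepatocytes, was at 188, 139, 102 and 130.4 on NCD and 344, 365 and 301 on SSD (log2 difference 1.29 ± 0.18, adjusted p = 0.000274). C3, Serpina3n, Hamp and C1qa did not pass. Of 30 interferon-stimulated genes 6 fell (20%) and 2 rose, beside 16% and 13.4% of all genes tested. Isg15 was at 295, 338, 470.1 and 287 on NCD and 175, 198 and 218 on SSD (log2 difference -0.79 ± 0.16, adjusted p = 0.00386), and Ifit1 (-0.90, adjusted p = 0.00366), Irf7 (-0.44, adjusted p = 0.00551) and Oasl1 (-1.60, adjusted p = 0.00161) fell, Irf7 not in a model over all 4 groups (adjusted p = 0.176), while Gbp2 (0.33, adjusted p = 0.168) did not pass. Of 16 antigen presentation genes 4 rose and 5 fell. H2-Aa (0.37, adjusted p = 0.0108) and H2-Ab1 (0.38, adjusted p = 0.0137), of class II, rose by less than 2-fold but did not pass in a model over all 4 groups (adjusted p = 0.4 and 0.415), H2-K1, of class I, fell (-0.56, adjusted p = 0.00112), and Cd74 and Ciita did not pass. With every library scaled to the same total, the count of complement genes was 7 higher and 9 lower, that of acute phase genes 4 higher and 7 lower, that of interferon-stimulated genes 6 higher and 5 lower and that of antigen presentation genes 5 higher and 2 lower. In a model over all 4 groups 8 acute phase genes were lower, and of the antigen presentation genes none was higher and 4 were lower.

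Macrophage genes rose in part. Of 22 genes of recruited and lipid-associated macrophages tested 8 rose and none fell, with a median of 0.39, and their summed normalized count was 11526 to 12753 on NCD and 13555 to 14751 on SSD. Trem2, a lipid receptor of these cells, was at 16.1, 16.2, 9.95 and 11.1 on NCD and 52.2, 26.5 and 35.1 on SSD (log2 difference 1.42 ± 0.31, adjusted p = 0.00544), and Gpnmb, another of their markers, at 4.6, 7.47, 1.24 and 4.92 and 57, 30.5 and 15.4 (adjusted p = 0.00374), its NCD mean being under the 10 required for a test. Cd9 was at 493, 603, 576 and 517 and 1233, 1204 and 1201 (log2 difference 1.15 ± 0.091, adjusted p = 4.15e-06). In all 3 each SSD-fed mouse lay above each NCD-fed mouse, but Trem2 did not pass in a model over all 4 groups (adjusted p = 0.0681). Cd63 (1.5, adjusted p = 0.000238), a lysosomal membrane protein, Itgax (0.69, adjusted p = 0.0469), the integrin CD11c, and Mmp12 (1.62, adjusted p = 0.0124), macrophage elastase, also rose, the last at an adjusted p of 0.0804 without SSD-fed mouse 1. Ccr2 (0.40, adjusted p = 0.23), the receptor that brings monocytes into the liver, Ly6c2 (1.44, adjusted p = 0.054) and Cd68 (0.31, adjusted p = 0.0509) did not pass. Of 12 resident Kupffer cell genes 3 rose, Cd5l (0.64, adjusted p = 0.00109), Adgre1 (0.42, adjusted p = 0.0384) and the iron exporter Slc40a1 (1.25, adjusted p = 3.24e-06), while Clec4f (0.20, adjusted p = 0.198), Timd4 (-0.13, adjusted p = 0.532), Vsig4 (0.036, adjusted p = 0.803) and Marco (-0.63, adjusted p = 0.125) did not pass. The calls of Cd5l (adjusted p = 0.0653), Adgre1 (0.197) and Itgax (0.234) did not hold in a model over all 4 groups, and without 1 mouse those of Adgre1 and Itgax were lost in 5 and 6 of 7 fits, at up to 0.142 and 0.147. With every library scaled to the same total, 17 recruited macrophage and 9 Kupffer cell genes were higher.

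Of 17 chemokines tested 1 rose (5.88%) and 4 fell (23.5%), beside 13.4% and 16% of all genes tested, and of 8 chemokine receptors none passed. Of 13 genes of the IL-17 receptor and its targets 1 rose and 1 fell, and with every library scaled to the same total 5 were higher and 1 lower. Cxcl1, a neutrophil chemokine and IL-17 target, was at 161, 240.2, 229 and 203 on NCD and 57.9, 85.1 and 66 on SSD (log2 difference -1.57 ± 0.17, adjusted p = 5.61e-05), and its fall did not pass in a model over all 4 groups (adjusted p = 0.153). Ccl9 (-1.59, adjusted p = 1.05e-07), Cxcl11 (-1.12, adjusted p = 0.000583) and Cxcl13 (-1.59, adjusted p = 0.00104), a B cell chemokine, fell. Ccl2, a monocyte chemokine, was at 17.2, 19.9, 13.7 and 18.5 and 24.1, 24.9 and 9.43 (log2 difference 0.060 ± 0.36, adjusted p = 0.916), and Cxcl9 (-0.13, adjusted p = 0.622) and Cxcl10 (0.18, adjusted p = 0.52), induced by interferon-γ, did not pass. Il17a had 0 reads in all 7 libraries, which allows up to 3 reads in each, and Il17ra, its receptor subunit, did not pass (0.18, adjusted p = 0.174). Lcn2, an IL-17 and acute phase target, was at 113, 90.8, 68.4 and 102 on NCD and 125, 93.2 and 120.0 on SSD (log2 difference 0.28 ± 0.18, adjusted p = 0.281). Nfkbiz (-0.20, adjusted p = 0.413), S100a8 (0.32, adjusted p = 0.609), S100a9 (0.17, adjusted p = 0.795), Il1b (-0.11, adjusted p = 0.839) and Casp1 (-0.19, adjusted p = 0.468) did not pass. Il1rn, the antagonist of the IL-1 receptor, rose (0.86, adjusted p = 0.022), and Il18 fell (-1.15, adjusted p = 3.4e-05). Il1rn did not pass in a model over all 4 groups (adjusted p = 0.13) or without SSD-fed mouse 1 or 2 (up to 0.0981). Cxcl2, Tnf and Cxcr2 were below the mean needed for a test.

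Of 10 B cell and plasma cell genes tested 3 fell and none rose, with a median of -0.42, and 1 fell in a model over all 4 groups, with every library scaled to the same total, and in 5 of the 7 fits without 1 mouse. The 3 were Ighm, Igkc and Jchain, all of immunoglobulin. Ighm, the heavy chain of IgM, was at 2030.0, 1507, 1699 and 1871 on NCD and 140.0, 130.1 and 169 on SSD (log2 difference -3.59 ± 0.12, adjusted p = 3.57e-09). The light chain gene Igkc was at 164, 281, 371 and 271 and 185, 152 and 143 (log2 difference -0.71 ± 0.22, adjusted p = 0.0306), a fall not found in a model over all 4 groups (adjusted p = 0.176) or in 5 of the 7 fits without 1 mouse (up to 0.115). Jchain, which joins the units of IgM and IgA, fell (-0.88, adjusted p = 0.0439), but not in that model (adjusted p = 0.0541) or in 6 of the 7 fits (up to 0.122). The B cell marker Cd79a had the highest difference of the list and did not pass (0.16, adjusted p = 0.809). Cd4 fell (-1.92, adjusted p = 0.000167). No NK cell gene passed among 4 tested, with Gzma at 8.04, 12.4, 14.9 and 3.69 on NCD and 9.66, 16.9 and 19.7 on SSD (log2 difference 0.69 ± 0.46, adjusted p = 0.283) and Ncr1 at most 6.15. Of the T cell genes Cd3e (0.47, adjusted p = 0.488) and Trbc2 (0.68, adjusted p = 0.102) did not pass. Trdc, the constant gene of the γδ T cell receptor, was at most 4.92. The blood marker Hbb-bs was at 365 to 3384 on NCD and 895 to 6827 on SSD (1.07, adjusted p = 0.313), a spread within groups that was larger than that between them. The part of blood content in the lymphocyte values was not tested.

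Of the genes that NKG2D could have engaged, 2 ligands fell. Raet1d was at 229, 275, 703 and 196 on NCD and 36.7, 31.3 and 41.1 on SSD (log2 difference -3.04 ± 0.34, adjusted p = 6.72e-05), and Raet1e at 172, 204, 468 and 141 and 16.4, 31.3 and 29.1 (log2 difference -3.10 ± 0.35, adjusted p = 7.2e-05). NCD-fed mouse 3 was the highest in both, and all SSD-fed mice lay below the lowest NCD-fed mouse. These overlapping genes are near-identical in sequence, and their reads may be split between them. Ulbp1 did not pass (-0.32, adjusted p = 0.582), H60b was at the floor, and the adaptor Tyrobp (DAP12) did not pass (0.20, adjusted p = 0.251).

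Of 31 stellate cell and matrix genes tested 12 rose (38.7%) and 2 fell (6.45%), with a median of 0.35. Of 18 collagens 5 rose (27.8%) and 3 fell (16.7%), with a median of 0.34, beside 13.4% and 16% of all genes tested. Col1a1, the main fibrillar collagen, was at 379, 442, 219 and 341 on NCD and 556, 671 and 358 on SSD (log2 difference 0.61 ± 0.24, adjusted p = 0.0733). Col3a1 was at 883, 1104, 706 and 898 and 1233, 1727 and 1027 (log2 difference 0.55 ± 0.17, adjusted p = 0.0328), with overlap, and Col1a2 (0.42, adjusted p = 0.128) and Col4a1 (0.25, adjusted p = 0.111) did not pass. Acta2, the smooth muscle actin of activated stellate cells, was at 88.5, 142, 73.4 and 75 and 87.9, 94.8 and 87.4 (log2 difference -0.019 ± 0.21, adjusted p = 0.953). The rises thus did not include Acta2 or the chains of type I collagen. Thbs2, a matricellular protein, was at 19.9 to 42.5 on NCD and 86.6 to 103 on SSD (1.68, adjusted p = 0.000356), Lum, the proteoglycan lumican, at 77.1 to 127 and 169.7 to 224 (0.92, adjusted p = 0.00309), which did not pass in a model over all 4 groups (adjusted p = 0.0746), and Lrat, which stores vitamin A in resting stellate cells, at 184 to 263 and 315 to 459 (0.72, adjusted p = 0.00698). Loxl4, a collagen crosslinking enzyme, fell (-2.38, adjusted p = 1.03e-05), as did Col27a1 (-1.06, adjusted p = 5.35e-05). In a model over all 4 groups Col3a1 (adjusted p = 0.459) and Col27a1 (0.115) did not pass, and Col3a1 did not pass in 5 of the 7 fits without 1 mouse (up to 0.122). Pdgfrb (0.24, adjusted p = 0.0827), Des (0.13, adjusted p = 0.52), Vim (0.39, adjusted p = 0.0686), Ccn2 (-0.56, adjusted p = 0.0762), Spp1 (-0.053, adjusted p = 0.814) and Lgals3 (0.26, adjusted p = 0.225) did not pass, and Timp1, Mmp13 and Lox were too low for a test. With every library scaled to the same total, 20 stellate cell genes and 10 collagens were higher.

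Some genes of the TGF-β pathway and of the sinusoidal endothelium rose. Of 15 endothelial genes tested 6 rose and none fell, each by less than 2-fold. Of 19 TGF-β ligand and signalling genes 7 rose and none fell, 12 with every library scaled to the same total, among them Inhbe and Inhbb (1.31, adjusted p = 0.0147), which encode activin subunits (Inhbb at an adjusted p of 0.0808 without SSD-fed mouse 1), and Smad7, an inhibitor of the pathway, which was at 141 to 282 on NCD and 287 to 448 on SSD (0.97, adjusted p = 0.00585). Tgfb1 itself did not pass (0.50, adjusted p = 0.0683), nor did Inhba (-0.12, adjusted p = 0.753). Icam1, an adhesion molecule for leukocytes, was at 191 to 264 on NCD and 403, 421 and 392 on SSD (log2 difference 0.84 ± 0.13, adjusted p = 0.000491), and Vcam1 at 214, 194, 131 and 141 and 379, 267 and 328 (log2 difference 0.94 ± 0.18, adjusted p = 0.00261). Both were without overlap, while the sinusoidal markers Stab2 (-0.14, adjusted p = 0.325), Lyve1 (0.15, adjusted p = 0.486) and Clec4g (0.27, adjusted p = 0.0882) did not pass. Of the bile duct genes Krt23 (1.73, adjusted p = 0.00157) and Epcam (1.01, adjusted p = 0.00889), the latter not in a model over all 4 groups (adjusted p = 0.0871), rose, and Krt7 (0.029, adjusted p = 0.95), Krt19 (0.31, adjusted p = 0.458) and Sox9 (-0.016, adjusted p = 0.956) did not pass. Id1, a target of bone morphogenetic proteins, was at 105, 174, 302 and 119 on NCD and 898, 491 and 459 on SSD (log2 difference 1.87 ± 0.33, adjusted p = 0.00142), Bmp6 rose (0.54, adjusted p = 0.0342), but not in that model (adjusted p = 0.0509) or in 5 of the 7 fits without 1 mouse (up to 0.163), and Tfrc, the transferrin receptor, fell (-0.81, adjusted p = 0.000233). Tnfrsf12a, the receptor Fn14 of injured liver, rose (1.01, adjusted p = 7.7e-05). Egfr, the epidermal growth factor receptor of hepatocytes, was at 10138, 18296, 14610.0 and 15212 on NCD and 6252, 4920.4 and 7223 on SSD (log2 difference -1.23 ± 0.18, adjusted p = 0.000417).

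None of the 19 genes tested of the mitosis list rose or fell in Klrk1-/- liver, with a median of -0.20, and of 23 DNA replication genes 3 rose and 3 fell (13% each, near the 13.4% and 16% of all genes tested), with a median of -0.061, and 6 were higher and 2 lower with every library scaled to the same total. Mki67, the proliferation marker Ki-67, was at 54, 44.8, 51 and 36.9 on NCD and 42.5, 32.1 and 24.9 on SSD (log2 difference -0.50 ± 0.23, adjusted p = 0.125). Top2a, which untangles replicated DNA, was at 34.5, 24.9, 37.3 and 18.5 and 27, 29.7 and 17.1 (log2 difference -0.20 ± 0.30, adjusted p = 0.651), and Cdk1, the kinase that starts mitosis, at 40.2, 44.8, 49.7 and 55.4 and 52.2, 46.6 and 28.3 (log2 difference -0.20 ± 0.23, adjusted p = 0.557). The diets overlapped in each, as they did for Foxm1 (0.039, adjusted p = 0.949), Mcm2 (-0.14, adjusted p = 0.639), Rrm2 (-0.00061, adjusted p = 0.998) and Ccne1 (0.62, adjusted p = 0.198). Of 15 cell cycle brakes and p53 targets tested 4 rose (26.7%) and 3 fell (20%), with a median of 0.0028. Some regulators of the cell cycle rose. Ccnd1, cyclin D1, was at 368, 347, 326 and 268 on NCD and 619, 859 and 447 on SSD (log2 difference 0.93 ± 0.19, adjusted p = 0.00331), Gadd45b, a stress gene, at 17.2 to 54.7 and 148 to 297 (2.94, adjusted p = 0.000122), and Cdkn2c, an inhibitor of cyclin D kinases, at 52.3 to 87.1 and 168 to 223 (1.52, adjusted p = 0.000148). Cdkn1a, the p21 inhibitor, was at 1330.3, 804, 772 and 621 and 1499, 619 and 1316 (log2 difference 0.34 ± 0.29, adjusted p = 0.415), and Mdm2 did not pass (-0.022, adjusted p = 0.894). Outside the list the spindle gene Spag5 fell, with 25.3, 26.1, 19.9 and 33.2 on NCD and 15.5, 9.64 and 11.1 on SSD (-1.06, adjusted p = 0.0179), but not in a model over all 4 groups (adjusted p = 0.0761) or in 3 of the 7 fits without 1 mouse (up to 0.0572). At an unadjusted p under 0.05 the mitosis list held 2 genes, and at an adjusted p under 0.05 edgeR passed 0 and DESeq2 2.

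Transcripts of the mitochondrial genome were lower. Of 11 tested 9 fell and none rose. mt-Co1, of complex IV, was at 1302905, 1180442, 1894169.8 and 1449220.2 on NCD and 637167, 685789 and 570337 on SSD (log2 difference -1.19 ± 0.22, adjusted p = 0.00188), and mt-Cytb, of complex III, at 733735, 640370.3, 1009786 and 783932 and 384566, 423921 and 332494 (log2 difference -1.05 ± 0.20, adjusted p = 0.00225). mt-Nd1, of complex I, fell less (-0.57, adjusted p = 0.02), and not without SSD-fed mouse 1 or 3 (adjusted p of up to 0.0699). The values did not overlap in these 3, and the summed normalized total of a library, to which they contribute heavily, was 26741399 in the median NCD-fed and 22511101 in the median SSD-fed mouse. With no minimum mean, mt-Co1 and mt-Nd1 did not pass. With the replicate number as a block or every library scaled to the same total, mt-Nd1 did not pass. Of 32 nuclear encoded subunits 15 fell by less than 2-fold and none rose, a count that became 6 higher and 3 lower with every library scaled to the same total. Ndufs1 (0.10, adjusted p = 0.449), Sdha (0.070, adjusted p = 0.729) and Cox4i1 (-0.14, adjusted p = 0.261) did not pass. Of 16 pericentral genes 4 rose and 5 fell, and of 10 periportal genes 2 rose and 6 fell, beside 29.4% of all genes tested that passed in either direction. Glul, of the hepatocytes around the central vein, was at 12861 to 17096 on NCD and 11481 to 14894 on SSD (-0.19, adjusted p = 0.241), Lgr5 fell with overlap (-0.59, adjusted p = 0.0495) but not in 6 of the 7 fits without 1 mouse (up to 0.141) or in a model over all 4 groups (0.099), Rhbg fell (-1.32, adjusted p = 0.00015), Axin2 did not pass (0.60, adjusted p = 0.0589), and Cdh1, a periportal cadherin, fell (-0.65, adjusted p = 0.00108).

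The diet response was then set beside that of the WT mice, which share no mouse with the Klrk1-/- groups. In WT mice 34.9% of 13091 genes passed, 17.3% higher and 17.6% lower, and 800 genes (6.11%) were higher and 379 (2.9%) lower by more than 2-fold, together 9.01%. The diets did not overlap in WT mice for 29% of the genes. Of the 327 genes higher in Klrk1-/- mice, 209 were also called higher in WT mice, 63.9% of the Klrk1-/- list and 26.1% of the WT list. Of the 377 lower genes 237 were shared, 62.9% and 62.5% of the lists. These shares require a more than 2-fold call in both genotypes, and the WT comparison had more mice. Of the 800 genes higher in WT mice, 686 were tested in Klrk1-/- mice and 363 rose there. Of the 379 lower in WT mice, 371 were tested and 331 fell. In WT mice 268 of the 327 higher Klrk1-/- genes rose and 289 of the 377 lower ones fell. Over 12767 genes tested in both, the log2 differences had a Pearson correlation of 0.772 and a Spearman correlation of 0.667, and over the 684 called in Klrk1-/- mice a Pearson correlation of 0.927. The 684 genes were chosen by their Klrk1-/- difference, which leaves out small differences and can by itself raise the correlation. Genes are not independent, the mice of each genotype share 1 line, and the correlation is a description. Cholesterol synthesis had a median of -2.69 in Klrk1-/- and -2.80 in WT mice, and PPARα targets 0.83 and 1.03. Medians are over the genes tested in both genotypes. Among the 54 lists with at least 6 such genes, the medians lay more than 0.6 apart in 9, lower in Klrk1-/- mice in 7 and higher in 2. The lower ones were mitosis (-0.20 and 2.23), ATF4 targets (0.91 and 2.45), chemokine receptors (0.12 and 1.12), recruited macrophages (0.39 and 1.16), dendritic cells (0.095 and 0.85), cell cycle brakes and p53 targets (0.0028 and 0.64) and DNA replication (-0.061 and 0.54). The higher ones were pericentral genes (0.17 and -0.45) and blood cells (0.83 and -0.28). These gaps between medians were not tested. Among SSD-fed WT mice, mouse 1 had the highest summed count of recruited macrophage genes (40765, the others 17279 to 20889). That mouse was also highest for chemokine receptors (1020, the others 318 to 501). The rise of mitosis genes was uneven too, with summed counts of 5203, 1570, 1307, 3670 and 665 in SSD-fed WT mice 1 to 5. The NCD-fed WT mice held 338 to 489. The medians of mitosis and DNA replication in Klrk1-/- mice became positive, at 0.053 and 0.19, when every library was scaled to the same total, which moved the median of all genes from -0.0020 to 0.25.

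**Figure D3:**
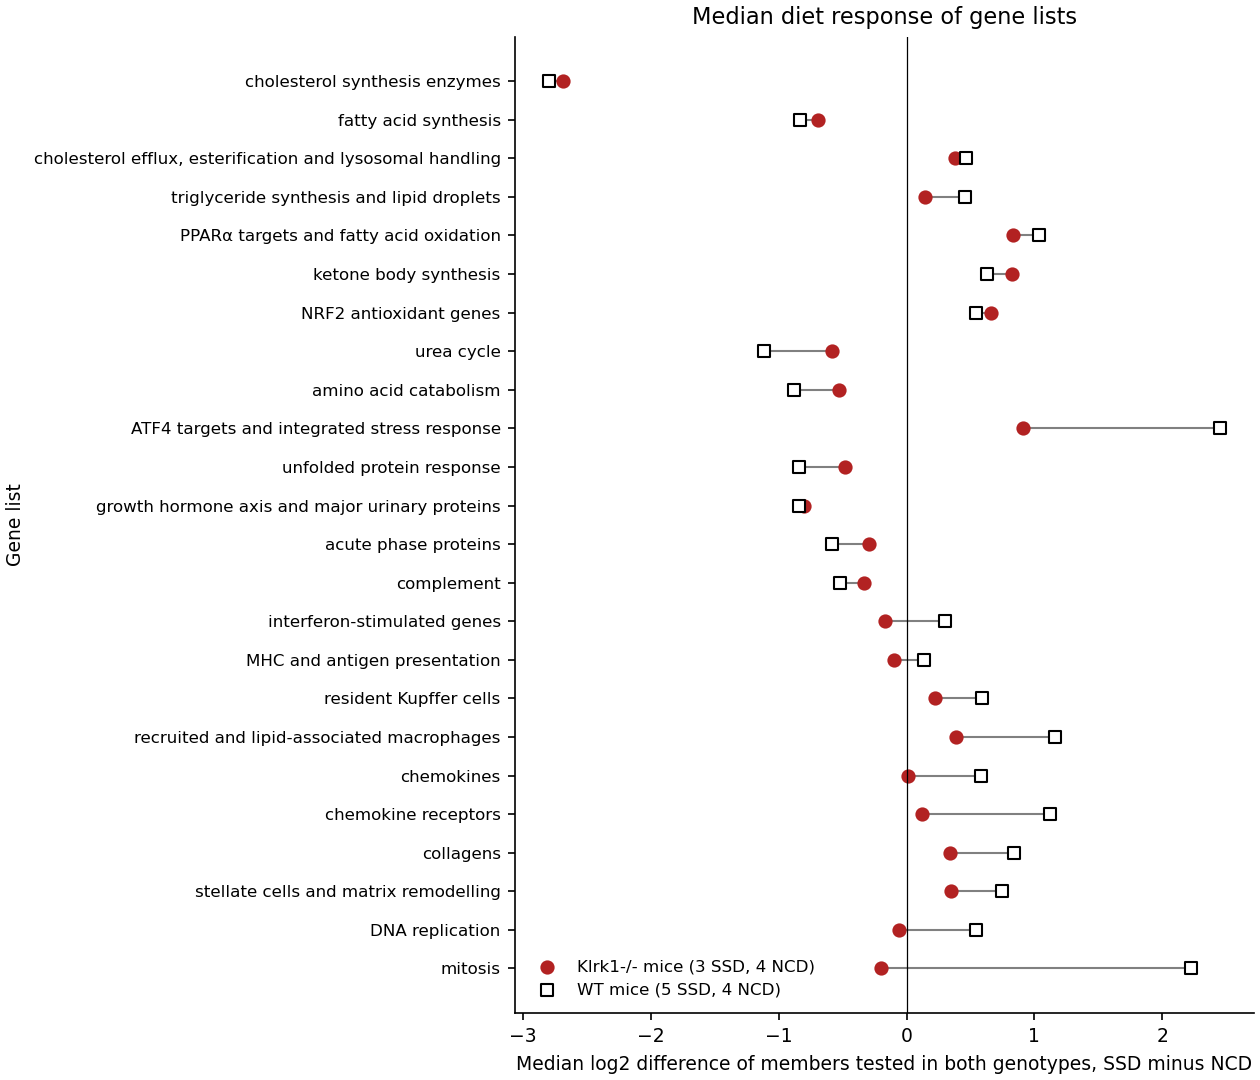
Median log2 difference between SSD-fed and NCD-fed mice of 24 gene lists in Klrk1-/- mice (filled circles) and in WT mice (open squares), with a line joining the pair of each list, each over the genes tested in both genotypes. Cholesterol synthesis was at -2.69 in Klrk1-/- and -2.80 in WT mice, and mitosis was at -0.20 in Klrk1-/- and 2.23 in WT mice.

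The difference itself was tested as the interaction of diet and genotype over all 16 mice. Of 13068 genes 115 (0.88%) passed, 42 with a higher (0.321%) and 73 with a lower effect (0.559%) in Klrk1-/- mice, and 70 (0.536%) differed by more than 2-fold, with 57 (0.436%) where the SSD effect was lower in Klrk1-/- than in WT mice and 13 (0.0995%) where it was higher. Most genes of the lists above were therefore not shown to respond differently without NKG2D. WT SSD-fed mouse 1 stood far from its group for Trem2, Gpnmb, Atf3 and Ankrd9, and without it 52 genes were lower and 15 higher. The count of lower genes ranged from 23 without Klrk1-/- SSD-fed mouse 1 or 3 to 115 without WT SSD-fed mouse 5, with 33 without Klrk1-/- NCD-fed mouse 1, 36 without WT NCD-fed mouse 1, and 35 without Klrk1-/- SSD-fed mouse 2 or WT SSD-fed mouse 4. By DESeq2 169 genes were lower and 27 higher, and with the replicate number as a block 27 were lower and 8 higher.

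The interaction passed for 3 of 23 mitosis genes and 3 of 24 DNA replication genes, each lower in Klrk1-/- mice, beside 0.88% of all genes tested. Ccnb1, cyclin B1, was at 49.4, 9.95, 16.2 and 6.15 on NCD and 8.69, 4.02 and 3.43 on SSD in Klrk1-/- mice. In WT mice it was at 4.82, 2.01, 9.12 and 6.62 and 175, 51.5, 28.6, 110.2 and 15.5 (difference of the log2 effects -4.61 ± 0.97, adjusted p = 0.0303). All SSD-fed WT mice lay above every NCD-fed WT mouse, whereas no SSD-fed Klrk1-/- mouse lay above its NCD group. Ckap2l, a spindle protein (2.41 to 6.76 on SSD in Klrk1-/-, 13.1 to 184 in WT, -4.25, adjusted p = 0.0303) and Fam83d, which positions the spindle (3.86 to 4.82 and 7.35 to 37.3, -3.65, adjusted p = 0.0172), were also lower on SSD in every Klrk1-/- than in any WT mouse, but both were below the mean needed for a test within Klrk1-/- mice and entered through the SSD-fed WT mice. Mki67 was at 20.9 to 41.3 on NCD and 79.2 to 788 on SSD in WT mice (-3.36, adjusted p = 0.0277), and Top2a at 27.4 to 41.3 and 59.6 to 296 (-2.37, adjusted p = 0.0452). The replication gene Mcm6 (-1.24, adjusted p = 0.034) was at 70.1 to 98.4 and 74.7 to 81.1 in Klrk1-/- and at 67.8 to 95.6 and 135 to 249 in WT mice. For Cdk1 (-1.94, adjusted p = 0.125), Ccna2 (-2.43, adjusted p = 0.0718) and Foxm1 (-2.19, adjusted p = 0.174) the difference between genotypes did not pass. Leaving out 1 mouse at a time ended the call of Ccnb1, Ckap2l and Mcm6 in 8 of 16 fits, of Mki67 in 9 and of Top2a in 13, with adjusted p of up to 0.148, and that of Fam83d in 2 of 13. Without WT SSD-fed mouse 1, the adjusted p was 0.0108 for Mki67 and 0.0455 for Top2a.

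The promoters of these genes are known for 2 short elements. The cell cycle homology region, TTTGAA on either strand, was in 50% of the mitosis promoters (12 of 24) and in 18.3% of all promoters, and an E2F site, TTTCCCGC or TTTGGCGC on either strand, was in 32% of the DNA replication promoters (8 of 25) and in 1.77% of all. The 2 elements share no full match. Top2a and Mcm6 are shown as called interaction genes with such a match before the start, in capitals, from chr11:98915135-98915234 and chr1:128287453-128287552, both on the minus strand of GRCm39.
Top2a: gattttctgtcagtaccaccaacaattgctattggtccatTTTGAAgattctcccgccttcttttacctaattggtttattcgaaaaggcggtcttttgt
Mcm6: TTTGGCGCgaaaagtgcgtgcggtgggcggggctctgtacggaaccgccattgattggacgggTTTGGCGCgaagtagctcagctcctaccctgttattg
The Mcm6 stretch holds 2 matches and that of Top2a 1.

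**Figure D4:**
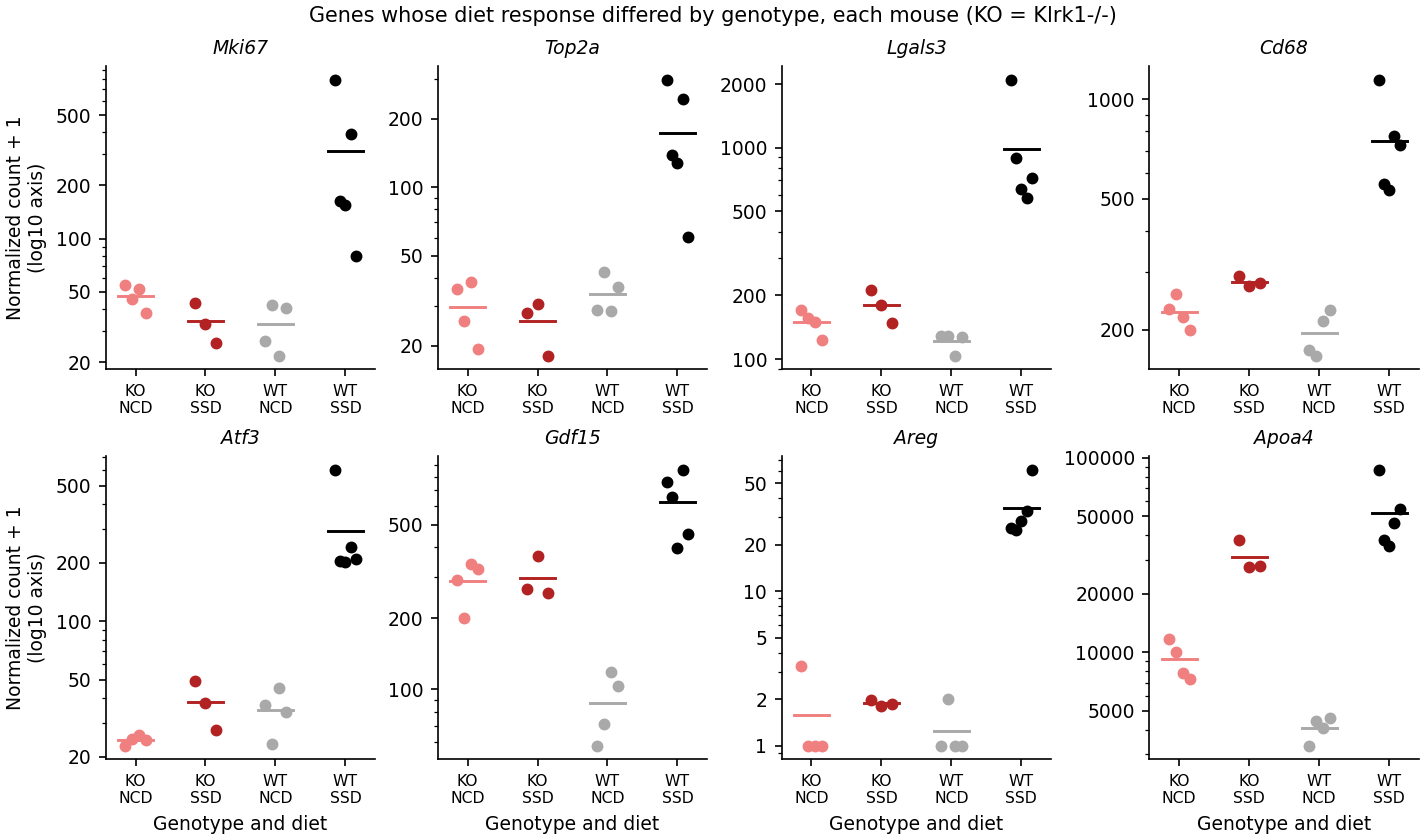
Normalized counts + 1 on a log10 axis of 8 genes in each mouse of the 4 groups, Klrk1-/- NCD (n = 4), Klrk1-/- SSD (n = 3), WT NCD (n = 4) and WT SSD (n = 5), with a bar at each group mean. Mki67, Top2a, Lgals3, Cd68, Atf3, Gdf15, Areg and Apoa4 were higher on SSD in all 5 WT mice than in any WT mouse on NCD.

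The interaction passed for 3 of 22 recruited macrophage genes, 3 of 35 stellate cell and matrix genes, none of 19 collagens and 2 of 17 ATF4 targets, each lower in Klrk1-/- mice, beside 0.88% of all genes tested. Cd68, the lysosomal marker of macrophages, was at 229.8, 255, 218 and 199 on NCD and 291, 271 and 276 on SSD in Klrk1-/- mice and at 166 to 229.5 and 531 to 1145 in WT mice (-1.57 ± 0.26, adjusted p = 0.0107). Lgals3, galectin 3, was at 122 to 169 and 147 to 212 in Klrk1-/- and 103 to 128 and 577 to 2088 in WT mice (-2.57 ± 0.40, adjusted p = 0.00824). Mmp12, which rose in both, was at 14.6 to 33.8 on SSD in Klrk1-/- and 107 to 1060.2 in WT mice (-3.52, adjusted p = 0.034). Trem2 (-1.32, adjusted p = 0.36), Gpnmb (-2.39, adjusted p = 0.2), Ccr2 (-1.31, adjusted p = 0.195), Col1a1 (-1.21, adjusted p = 0.398) and Lcn2 (-2.18, adjusted p = 0.196) were lower in their effect in Klrk1-/- mice but did not pass. Areg, an EGF receptor ligand, was at or under 3 reads in all 7 Klrk1-/- mice (2.3, 0, 0 and 0 on NCD, 0.966, 0.803 and 0.857 on SSD), at 0 to 1.01 in WT mice on NCD and at 24.6, 23.7, 27.6, 32 and 59.6 on SSD (adjusted p = 0.0172). Sprr1a, a cornified envelope protein induced in injured tissue, was at 3.86, 0.803 and 0 on SSD in Klrk1-/- and 111, 65.9, 46.6, 24 and 45.7 in WT mice (adjusted p = 0.0221). Both genes reached the mean needed for a test only through the SSD-fed WT mice. Neither had an SSD-fed WT mouse as low as any SSD-fed Klrk1-/- mouse. Without WT SSD-fed mouse 1, the adjusted p was 0.00148 for Cd68, 8.45e-05 for Lgals3 and 0.0108 for Mmp12, and Areg no longer had the mean needed for a test. Cd68 and Lgals3 passed without each of the 16 mice in turn, but Mmp12 did not pass in 9 of these 16 fits, with an adjusted p of up to 0.123. Without Klrk1-/- SSD-fed mouse 3, Areg was at an adjusted p of 0.0523 and Sprr1a at 0.0768.

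In several genes the effects differed along with the level on NCD. Gdf15 was at 200.3 to 339.5 on NCD and 256 to 369 on SSD in Klrk1-/- mice and at 56.7 to 117 and 397 to 851 in WT mice (-2.77 ± 0.37, adjusted p = 0.0019). Cdkn1a was at 621 to 1330.3 and 619 to 1499 in Klrk1-/- and at 254 to 499 and 1375 to 2985 in WT mice (-2.19, adjusted p = 0.0181), and Nr0b2 at 2128 to 3059 and 1005 to 2216 against 515 to 802 and 1191 to 2097 (-1.78, adjusted p = 0.0158). Apoa4 rose in both genotypes and less without NKG2D (-1.84, adjusted p = 0.015), with 7278 to 11720.4 in Klrk1-/- and 3314 to 4608 in WT mice on NCD. The NCD-fed Klrk1-/- mice were above the NCD-fed WT mice in all 4 genes. For Atf3 the NCD-fed mice of the genotypes overlapped, with 21.8 to 24.9 and 26.6 to 48.3 in Klrk1-/- and 22.2 to 44.3 and 202 to 601 in WT mice (-2.35 ± 0.43, adjusted p = 0.0166). Cidec also rose in both genotypes and less without NKG2D (9.12 to 28.9 and 519 to 1407 in WT mice, -2.45, adjusted p = 0.0485), and this call was lost in 14 of 16 fits without 1 mouse. Only 1 of 5 adipocyte genes had the mean needed for a test, and its interaction (-3.12) did not pass. It was at 13.3, 1257, 1135, 77.3 and 94.7 in SSD-fed WT mice and at most 32.9 in Klrk1-/- mice. The part of adipocyte content in these effects was not tested. Atf3 was at an adjusted p of 0.0581 without Klrk1-/- SSD-fed mouse 3. Dhcr7 fell in both and further in Klrk1-/- mice, where SSD-fed mice held 94.6 to 171 without and 274 to 374 with NKG2D (-1.37 ± 0.22, adjusted p = 0.00963). Ighm was 428 to 1105 on NCD and 150.4 to 201 on SSD in WT mice, and its fall was larger in Klrk1-/- mice (-1.61, adjusted p = 0.0156), which held more on NCD.

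The 5 genes with the highest interactions all fell in WT mice. Slc25a25, a mitochondrial carrier, was at 443 to 1560.1 on NCD and 2008 to 2471 on SSD in Klrk1-/- mice and at 6219 to 8818 and 2293 to 3578 in WT mice (3.06 ± 0.38, adjusted p = 0.00111). Enho fell in both genotypes and less without NKG2D, with 549.7 to 837 and 90.4 to 197 in WT mice (1.63 ± 0.30, adjusted p = 0.0172). Ankrd9 was at 32.3 to 51.7 and 46.4 to 56.6 in Klrk1-/- and at 51.3 to 88.6 and 12 to 32.1 in WT mice (1.78, adjusted p = 0.034). Paox, a polyamine oxidase, was at 71.3 to 89.6 and 63.7 to 81.4 in Klrk1-/- against 771 to 834 and 192 to 253 in WT mice (1.56, adjusted p = 0.00025), and Gse1 at 351 to 484 and 542 to 852 against 586 to 1273 and 421 to 624 (1.43, adjusted p = 0.0303). The NCD-fed Klrk1-/- mice held less Slc25a25, Enho (414 to 541), Paox and Gse1 than any NCD-fed WT mouse, so in 4 of the 5 genes the effects also differed along with the level on NCD. Slc25a25, Enho, Paox and Gse1 each overlap an expressed neighbour. Without 1 mouse the call was lost in 10 of 16 fits for Ankrd9 and 7 for Gse1, and Enho was at 0.0552 without Klrk1-/- SSD-fed mouse 1, while Slc25a25 and Paox passed in all 16.

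**Figure D5:**
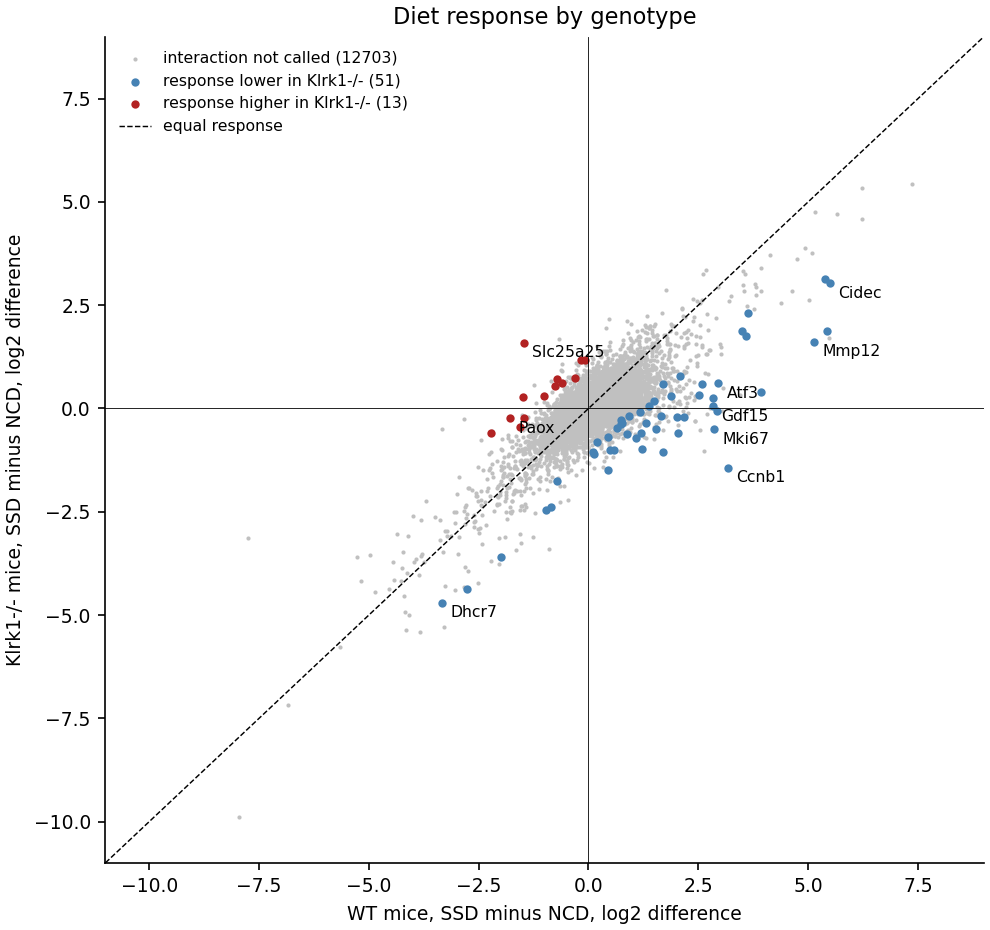
Log2 difference between SSD-fed and NCD-fed mice in WT mice (x axis) and in Klrk1-/- mice (y axis) of the 12767 genes tested in both, with the line of equal response. Coloured points are called interaction genes, with the response lower in Klrk1-/- mice below the line and higher above it. Of the 57 lower and 13 higher genes called, 51 and 13 are drawn. The rest, with Sprr1a, Areg, Ckap2l and Fam83d among them, were not tested within Klrk1-/- mice.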

How the data were processed

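RNA was taken from the liver of 16 mice and sequenced as single-end reads of 100 bases on an Illumina NovaSeq. The labels name a TruSeq mRNA kit and the study's methods a total RNA kit, and strandedness is not given in the sources used here, so reads of overlapping genes cannot be told apart. Some named genes overlap a neighbour with more reads. By mean normalized count over the 16 mice these include G6pdx (199, Ikbkg 2179), Pltp (2127, Ctsa 4021) and Il18 (222, Bco2 505). Bmp6 (76.5, Txndc5 5455), Sult5a1 (292, Galnt2l 806), Plin4 (903, Hdgfl2 1015) and Aldh1l2 (42.4, D10Wsu102e 290) are among them too. The authors aligned reads with STAR to GRCm39, and counted them per gene with FeatureCounts and GENCODE annotation. They deposited normalized counts, a signal equal to reads divided by 1 factor per library, for 25719 genes, of which 6948 had no read. The deposited table also gives the share of G and C bases and the length of each gene, from the authors' annotation, which were not used. How the factors were made is not given. In each library the deposited values were whole multiples of 1 read within 0.01, and these recovered reads served for depth, the floor of 3 reads and the count tests.

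Log2(normalized count + 1) was fitted with limma 3.58.1 (R 4.3.3, trend) over genes with a mean of at least 10 in the mice of the model, with Benjamini-Hochberg adjustment over all genes tested. Calls needed an adjusted p under 0.05 and a more than 2-fold change. The Klrk1-/- comparison used 7 mice, the interaction all 16. Each mouse was 1 replicate. A single gene compared by exact permutation over 3 and 4 mice could not reach a p under 0.0571, so such tests are not given. edgeR 4.0.16 and DESeq2 1.42.0 on the recovered reads, other scalings, pseudocounts, minimum means, a replicate block and leaving out each mouse were the alternatives. The steps were also run on simulated counts with large known changes and the same dispersion for every gene. That run cannot show how calls behave where mice of a group differ more, or where 1 mouse sets the result.

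The genes named are Klrk1, the 10 largest rises and falls without overlap, the 5 highest and lowest interactions, and the key and called members of the lists. The members and lists were chosen with earlier results of these data known, and a few other genes were named after their values were seen. Some genes of the lists are counted but not reported by name. Promoters were read on GRCm39 from the canonical transcript start of a later GENCODE release than that of the counts (25505 of 25719 genes). Figures were drawn with matplotlib 3.10.9.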

Additional observations from a re-analysis of the deposited data

Results flagged for a closer look

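Of 363 groups of 4 or 5 mice tested over the named genes, 25 held 1 mouse set apart from the others of its group by a gap that was large against the whole range of the group, and chance alone would give about 1 in 20. The values below are this gap as a share of the range. Klrk1-/- NCD-fed mouse 3 was the mouse set apart for 7 genes, Abca1 (0.846), Creld2 (0.91), Cyp7b1 (0.837), Manf (0.946), Mthfd2 (0.862), Ndufs1 (0.989) and Nqo1 (0.902). Klrk1-/- NCD-fed mouse 1 was set apart for Abcb4 (0.833), Bhmt (0.874), Ccne1 (0.842), Fam83d (0.982) and S100a9 (0.832), mouse 2 for Ccl9 (0.861), Cyp2a4 (0.854), Fdps (0.96) and Lgr5 (0.834), and mouse 4 for Cyp2a5 (0.93), Marco (0.915) and Pnpla5 (0.865). Among WT mice, SSD-fed mouse 1 was set apart for Ankrd9 (0.773), Atf3 (0.842), Gpnmb (0.761) and Trem2 (0.799), NCD-fed mouse 2 for Ccr2 (0.873) and NCD-fed mouse 3 for Lgals3 (0.965). The 3 SSD-fed Klrk1-/- mice are too few for this measure.

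The diet effect differed between the genotypes, by limma's interaction test at an adjusted p under 0.05, for 31 of the named genes. The values are the log2 effect in Klrk1-/- mice minus that in WT mice. In the cell cycle these were Ccnb1 (-4.61), Ckap2l (-4.25), Fam83d (-3.65), Spag5 (-2.76), Mki67 (-3.36), Top2a (-2.37), Cdkn1a (-2.19) and Mcm6 (-1.24). Among stress, injury and growth factor genes they were Sprr1a (-5.11), Areg (-4.29), Gdf15 (-2.77), Atf3 (-2.35) and Hspa1b (1.22). Areg and Sprr1a were at or near the floor of 3 reads in all Klrk1-/- mice and reached the mean needed for a test only through the SSD-fed WT mice, so their values depend on the added 1 and give no fold. Ckap2l and Fam83d likewise were below the mean needed for a test within Klrk1-/- mice. Macrophage, matrix and immunoglobulin genes gave Mmp12 (-3.52), Lgals3 (-2.57), Ighm (-1.61), Cd68 (-1.57) and Loxl4 (-1.53). Lipid, sterol and bile acid genes gave Cidec (-2.45), Lpin1 (-1.93), Apoa4 (-1.84), Nr0b2 (-1.78), Acot2 (-1.62) and Dhcr7 (-1.37). The others were Cyp2a22 (-2.25), Slc25a25 (3.06), Ankrd9 (1.78), Enho (1.63), Paox (1.56), Gse1 (1.43) and Gls2 (0.64). Of the 31 genes, 11 passed without each mouse in turn, namely Apoa4, Cd68, Cdkn1a, Dhcr7, Gdf15, Ighm, Lgals3, Lpin1, Nr0b2, Paox and Slc25a25.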

How the results depend on the processing

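In Klrk1-/- mice 327 genes were higher and 377 lower on SSD. The higher count was 205 with a minimum mean of 50, and 678 with every library scaled to the same total, where 271 were lower. With a fold limit of 1.5 the counts were 844 and 852, and with no fold limit 1723 and 2067. The other tools, factors, pseudocounts and models left both counts within 1.5 times. Leaving out 1 mouse gave 289 to 346 higher and 356 to 405 lower genes. Of 216 named genes that passed, 167 passed the same way under every alternative and none passed the opposite way. A model over all 4 groups lost 35 calls (adjusted p of 0.0509 to 0.475), each named in the report with its adjusted p, and leaving out 1 mouse lost 28, with adjusted p of up to 0.163. The calls lost in 4 to 6 of the 7 such fits were those of Abca1, Adgre1, Bmp6, Col3a1, Creld2, Cyp2f2, Hspa1b, Hyou1, Igkc, Itgax, Jchain, Lgr5, Mup20, Pdk4, Pfkfb3, Slc10a1 and Srebf1. Without SSD-fed mouse 1, H2-Ab1 was at an adjusted p of 0.0641, and without mouse 3 Ppara was at 0.0789, while Spag5 missed the threshold in 3 fits and Igfbp1, Il1rn and mt-Nd1 each missed the threshold in 2 fits. Scaling every library to the same total lost 15 calls. They were those of Cps1, Creld2, Cyp1a2, Cyp2f2, Hspa5, Hyou1, Igkc, Irf7, Jchain, Lgr5, Mup20, Pfkfb3, Slc10a1, Taldo1 and mt-Nd1. The interaction gave 13 higher and 57 lower genes, 27 and 169 by DESeq2, and 5 to 15 and 23 to 115 when 1 mouse was left out. With the replicate number as a block, the Klrk1-/- counts were 340 and 384 and the interaction counts 8 and 27. Whether the numbers pair the mice was not settled. Same-numbered mice deviated together with correlations of 0.153, 0.103 and -0.030, and differently numbered mice with -0.156 to 0.095. Of the 3 SSD-fed mice, 2 correlated best with their own number. The cause of these shifts was not tested. With 3 SSD-fed mice the spread of that group rests on few values, and genes near the floor of 3 reads give no reliable fold.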
